A study of Homo sapiens with 4 samples.

Results

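The mRNAs of 6 mitochondrial genes were examined for sites of the Argonaute proteins AGO1 and AGO2 in HEK293, a human embryonic kidney cell line. MT-CO1, MT-CO2 and MT-CO3 encode the catalytic-core subunits of cytochrome c oxidase (complex IV), MT-ATP8 and MT-ATP6 encode membrane subunits of ATP synthase, and MT-CYB encodes cytochrome b of complex III. Regions were assigned to these genes by position alone. A region belonged to a gene if it overlapped the gene's interval on the mitochondrial chromosome of hg19 by at least 1 nt. This gave 35 regions on the plus strand, the sense strand of all 6 genes, out of 95 plus-strand mitochondrial regions and 211947 regions in all. A further 35 regions lay on the minus strand opposite the same genes and are given separately as antisense regions.

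The sites came from PAR-CLIP, in which cells take up 4-thiouridine, ultraviolet light crosslinks the labelled RNA to protein, and the RNA that comes down with the chosen protein is sequenced. There were 3 AGO1 libraries, from HEK293 cells that stably expressed His/FLAG/HA-tagged protein, labelled with 4-thiouridine at 200 µM and precipitated through FLAG, and 1 AGO2 library, labelled at 100 µM and precipitated with an antibody to AGO2 itself. Labelling lasted 16 h and crosslinking was at 365 nm in all 4. The AGO2 labels name no tag, although the text for the series as a whole mentions tagged AGO1 and AGO2 lines. No library without 4-thiouridine or without an AGO precipitation was among them.

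The deposited list pooled libraries and gave each region 1 score, a whole number from 1 to 1000, with a start, an end and a 1-nt position inside the region. What the score counts is not stated, so sums and ratios of scores below describe this list on the authors' scale and are not amounts of RNA or of binding, and 1000 is read as a ceiling because 7 regions stand there and the next value is 925. With no value per library, AGO1 could not be compared with AGO2, no value below has a replicate error, and no difference was tested. Read depth is unknown, the abundance of the mitochondrial RNAs was not measured, and binding by AGO and the amount of RNA present cannot be told apart in these scores. Wilson intervals at 95% are given for shares and cover counting error only.

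Human mitochondrial DNA is a small circle whose strands are each transcribed into long precursor RNAs. Transfer RNAs lie between most of the coding genes, and their excision frees the mRNAs. MT-ATP8 and MT-ATP6 are an exception: they share 1 mRNA in which their reading frames overlap, and MT-CO3 follows MT-ATP6 with no tRNA between them. Transcripts of the opposite strand are mostly noncoding across these genes and are normally removed by the mitochondrial degradosome. Argonaute proteins act with microRNAs mainly in the cytosol.

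All 6 genes carried sense regions, and most of these had scores well above those typical of the nuclear genome. The median score of the 35 sense regions was 49 (interquartile range 20 to 102), against 3 (2 to 5) for 211672 regions on the nuclear chromosomes. A score of at least 100, called a high score here, was held by 9 of the 35 (25.7%, interval 14.2 to 42.1), against 0.248% of nuclear regions (0.228 to 0.270). In the whole list that share was 0.264%. A score of 1 or 2 was held by 1 sense region (2.86%), against 49.4% of nuclear regions. The remaining 60 plus-strand mitochondrial regions, in other genes or between genes, had a median score of 56.5 and a high score in 22 cases (36.7%, 25.6 to 49.3). The intervals of the 2 mitochondrial sets overlapped, and their difference was not tested.

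The higher scores went with wider regions, but they were also seen at equal width. Among regions of 30 to 49 nt, the 14 sense regions of the 6 genes had a median score of 37.5, against 13.5 for 12 other plus-strand mitochondrial regions and 3 for 89159 nuclear regions. Between 50 and 99 nt the medians were 32 for 10 sense regions, 55 for 27 other plus-strand mitochondrial regions and 6 for 31682 nuclear regions. Between 100 and 199 nt they were 122 for 9 sense regions, 137.5 for 12 other mitochondrial regions and 23 for 3539 nuclear regions. In each of these width classes the median of the sense regions stood above the nuclear median, though single sense regions of 30 to 49 nt had scores down to 2. It stood on neither side consistently of the median of the other mitochondrial regions.

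**Figure D1:**
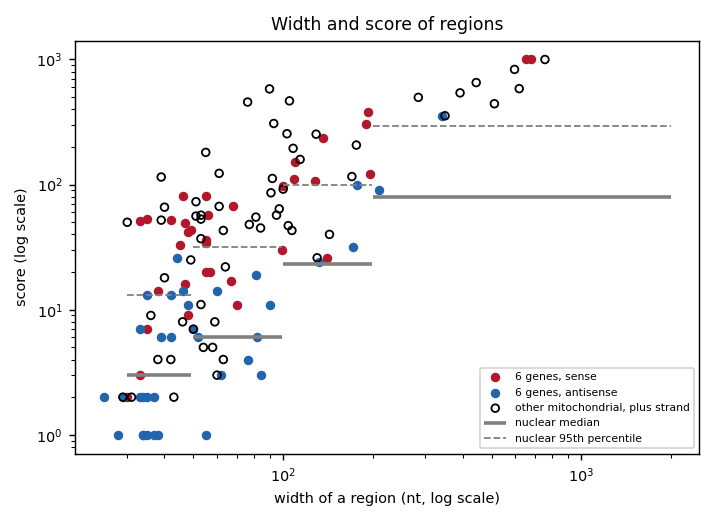
Score (vertical, log scale) against width in nt (horizontal, log scale) for each sense region (red) and antisense region (blue) of the 6 genes and for other plus-strand mitochondrial regions (open circles); grey lines give the nuclear median and 95th percentile in 4 width classes. Most red points lie above the nuclear median of their width class, which is 3, 6 and 23 in the classes up to 199 nt.

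MT-CO1, the subunit that holds the oxygen-reducing centre, spans positions 5905 to 7446 (1542 nt) and had 9 sense regions, all inside the gene. Their scores ran from 26 to 306 with a median of 53. The highest lay at 6337 to 6525 (189 nt, score 306) and the next at 6197 to 6332 (136 nt, score 236), with 4 nt between them. With the region at 6534 to 6588, of score 36, they made a stretch of 392 nt with gaps of at most 10 nt. The other 6 regions had scores from 26 to 81. The longest bare stretch ran for 247 nt, from 6672 to 6918. The gene's last 104 nt and first 90 nt were also without a sense region. In all, 49.7% of the gene was covered.

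MT-CO2 carries the copper site that takes electrons from cytochrome c. Its 684 nt, from 7587 to 8270, held 7 sense regions, again all inside the gene, with scores of 7 to 110 and a median of 20. The highest lay at 8109 to 8217 (score 110), followed by 7844 to 7943 (score 97) and 7626 to 7671 (score 81). Low and high regions alternated along the gene, as regions of score 7 and 9 at 7999 to 8033 and 8039 to 8086 lay between the 2 highest. Coverage was 65.8%. Between MT-CO1 and MT-CO2, where the annotation places the tRNA genes for serine and aspartate, 1 further plus-strand region lay at 7516 to 7554 with a score of 115, outside both genes. Opposite it, 1 minus-strand region lay at 7509 to 7551 with a score of 64.

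MT-ATP8 (8367 to 8573, 207 nt) and MT-ATP6 (8528 to 9208, 681 nt) overlap by 46 nt. MT-ATP8 had 2 sense regions, 1 of score 14 at 8381 to 8418 and 1 of score 107 at 8425 to 8552. The longer one ran into the overlap and covered 25 of its 46 nt, so it counts for both genes, but its 1-nt position, 8474, lay in MT-ATP8 alone. The MT-ATP6 start at 8528 was therefore inside a sense region, whereas the last 21 nt of MT-ATP8 were bare. MT-ATP6 had 4 regions of its own, with scores of 49, 52, 68 and 153. The highest of them lay at 8630 to 8739. A stretch of 171 nt, from 8740 to 8910, had none, and coverage was 42.9% for MT-ATP6 and 80.2% for MT-ATP8.

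No sense region crossed the junction of MT-ATP6 with MT-CO3, which share position 9208. The last region of MT-ATP6 ended 14 nt before it, at 9193 (score 49), and the first of MT-CO3 began 30 nt after it, at 9239 (score 42). The nearest antisense regions were farther away, 122 nt before and 94 nt after. Between MT-CO2 and MT-ATP8, in the 96 nt where the tRNA gene for lysine lies, there was no region on either strand.

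MT-CO3 (9208 to 9991, 784 nt) combined low scores inside the gene with a region at the ceiling at its 3′ end. The 5 regions wholly inside it had scores of 2, 11, 42, 43 and 51, with a highest score below that inside any of the other 5 genes. The sixth, at 9743 to 10393, was 651 nt wide and had a score of 1000. Only 249 nt of it lay in MT-CO3, and it ran 402 nt past the gene's end. Its 1-nt position, 10046, was 55 nt beyond that end. In the RefSeq annotation the next genes are the tRNA for glycine (68 nt) and MT-ND3 (346 nt), a complex I subunit, and how the score is shared among these genes cannot be told from the list.

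MT-CYB (14748 to 15888, 1141 nt) had 94.5% of its nucleotides in a sense region, the highest share of the 6 genes when every overlapping region counts. With regions assigned by their 1-nt position its coverage was 49.7%, below MT-ATP8 (80.2%) and MT-CO2 (65.8%), and that of MT-CO3 was 29.3% in place of 61.1%. MT-CYB, like MT-CO3, ended in a region at the ceiling, at 15423 to 16099 (677 nt, score 1000), of which 466 nt lay in the gene and 211 nt beyond it. The 1-nt position of that region, 15973, was 85 nt past the gene's end, farther than the 66 nt of the next gene. In RefSeq order the tRNA genes for threonine (66 nt) and then proline (68 nt) follow MT-CYB. Their strands were not examined, so the region's outer part cannot be called sense to either. Inside the gene the highest regions adjoined each other at 14987 to 15179 (score 381) and 15181 to 15375 (score 122). The other 4 had scores of 3, 16, 17 and 30, and the one of score 17 reached 22 nt upstream of the gene's start. Counting all overlapping regions, no bare stretch in MT-CYB was longer than 33 nt.

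**Figure D2:**
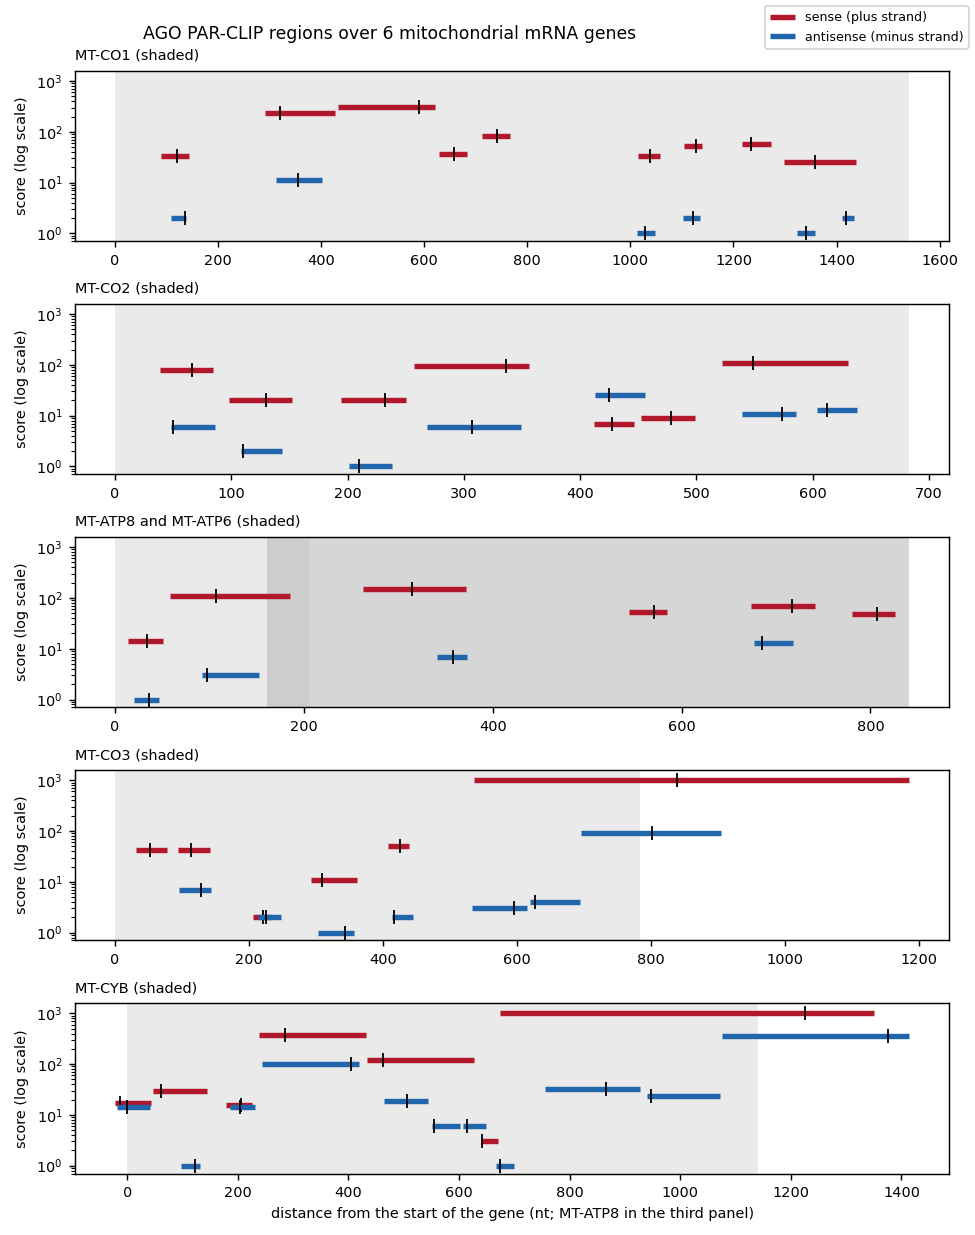
Regions along each gene: the horizontal axis is the distance in nt from the gene's start (from the start of MT-ATP8 in the third panel), the vertical axis the score on a log scale, red bars sense regions, blue bars antisense regions, black ticks the 1-nt position and shading the gene. The regions of score 1000 at the 3′ ends of MT-CO3 and MT-CYB have their tick outside the shading.

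The order of the genes turned on these end-crossing regions. By summed score per kb, taking every region that touched a gene whole, MT-CO3 (1466) and MT-CYB (1375) came first, ahead of MT-ATP6 (630), MT-ATP8 (585), MT-CO1 (559) and MT-CO2 (503). With regions assigned by their 1-nt position, the order was MT-ATP8 (585), MT-CO1 (559), MT-CO2 (503), MT-CYB (484), MT-ATP6 (473) and MT-CO3 (190). MT-CO3 thus stood highest under the first rule and lowest under the second, and the other 5 genes lay within 473 to 585 under the second. The same 6 sense values were obtained when only regions wholly inside a gene were kept. The 3 sense regions that crossed out of the gene set carried 46.2% of its summed score of 4367, and sums that include the 2 ceiling regions are lower bounds.

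**Figure D3:**
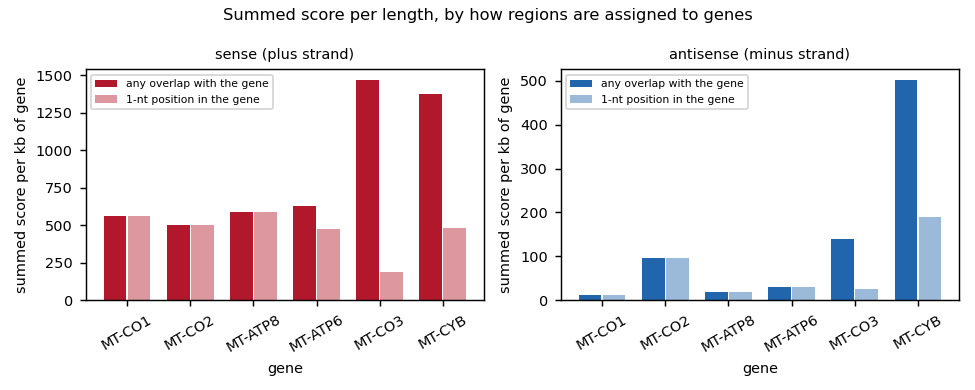
Summed score per kb of gene (vertical) for each of the 6 genes, sense at left and antisense at right, with dark bars for every region that overlaps the gene and pale bars for regions whose 1-nt position lies in it. The dark and pale sense bars are equal for MT-CO1, MT-CO2 and MT-ATP8 and differ most for MT-CO3 (1466 and 190).

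There were 35 regions on each strand of the genes, and sense regions scored higher. With regions of score 3 or more alone there were 34 sense and 22 antisense regions. The median score of all 35 sense regions was 49, against 6 (interquartile range 2 to 13.5) for all 35 antisense regions. A high score was held by 9 sense regions and 1 antisense region (2.86%). The median width was 55 nt for sense and 44 nt for antisense regions. Sense regions covered 64.2% and antisense regions 40.8% of the 4992 nt in the 6 genes. Sense regions held 84.7% of the summed score of both strands, 4367 against 789, a ratio of 5.54. Counting only regions with their 1-nt position in a gene, the ratio was 6.85. The median antisense score of 6 stood beside 9.5 for the other 58 minus-strand mitochondrial regions, a difference that was not tested.

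**Figure D4:**
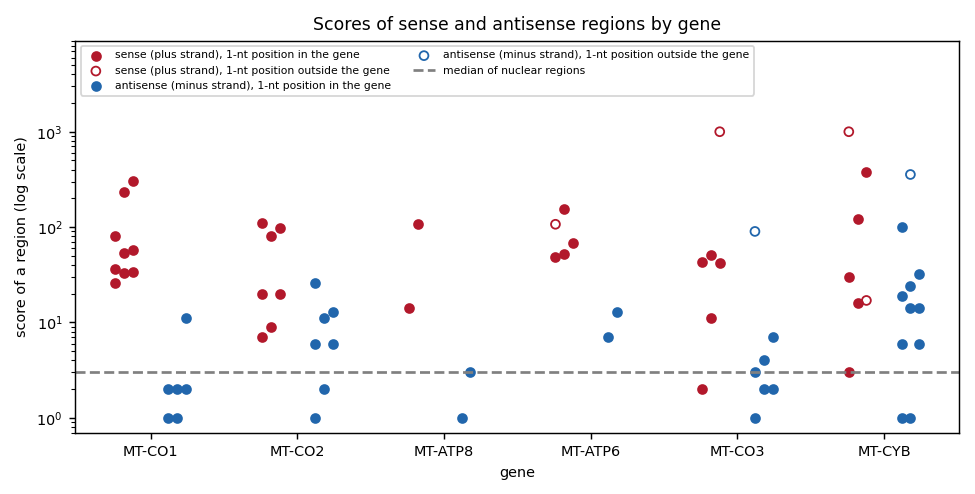
Score of each region (vertical, log scale) by gene, sense (red) left of antisense (blue); open circles are regions whose 1-nt position lies outside the gene, and the dashed line is the nuclear median of 3. In MT-CO1, MT-ATP8 and MT-ATP6 every sense score is above every antisense score, while in MT-CO2, MT-CO3 and MT-CYB the strands overlap.

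How far sense exceeded antisense varied among the genes. In MT-CO1 the 9 sense regions summed to 862 and the 6 antisense regions to 19, a ratio of 45.4, and the highest antisense score was 11, at 6218 to 6307. The ratios were 30.3 in MT-ATP8 and 21.5 in MT-ATP6, each with 2 antisense regions and a highest antisense score of 3 (8459 to 8520) and 13 (9044 to 9085). By 1-nt position the MT-ATP6 ratio was 16.1, as the sense region shared by these genes then counts for MT-ATP8 alone. MT-CO3 had a ratio of 10.5 from 6 sense and 7 antisense regions, and 7.84 by 1-nt position. MT-CO2 had 7 regions on each strand and a ratio of 5.29. MT-CYB had the lowest ratio, 2.74 from 7 sense and 11 antisense regions, and 2.56 by 1-nt position. These ratios rest on few regions, and no test of their differences was possible without libraries.

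MT-CYB had the highest antisense scores. The region at 15823 to 16162 (340 nt, score 356) held the only high antisense score, but 274 of its nucleotides lay past the gene's end and its 1-nt position was 235 nt beyond it. The strand of the neighbouring tRNA genes was not examined. Regions that run past the gene's ends are thus antisense with respect to MT-CYB only, and what their outer parts represent cannot be told here. Inside the gene the highest was at 14991 to 15167 (score 99), opposite the sense region of score 381, and the next had scores of 32 and 24. At the gene's start the antisense region at 14730 to 14789 (score 14) reached 18 nt upstream, opposite the sense region of score 17. Antisense regions covered 77.0% of MT-CYB, 53.7% of MT-CO3, 47.2% of MT-CO2, 43.5% of MT-ATP8, 16.2% of MT-CO1 and 11.0% of MT-ATP6. In MT-CO3 the highest antisense region also crossed the 3′ end, at 9904 to 10112 (score 90), with its 1-nt position 18 nt past the gene. Both ends that carried a sense region at the ceiling thus also carried the highest antisense region of the gene.

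**Figure D5:**
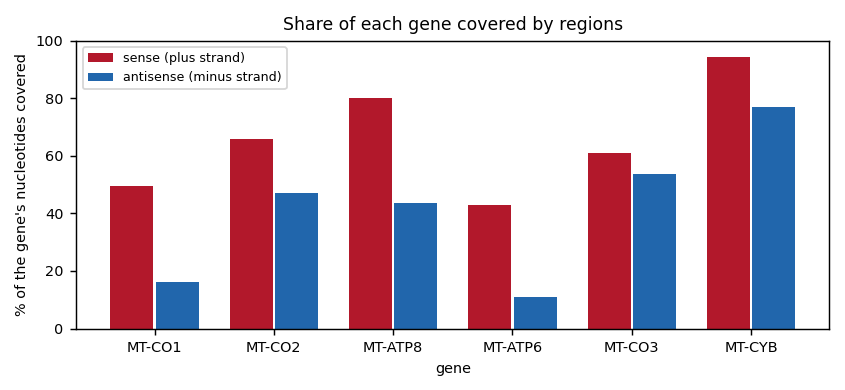
Percentage of each gene's nucleotides covered by sense regions (red) and antisense regions (blue). Every region that overlaps a gene counts: sense coverage runs from 42.9% in MT-ATP6 to 94.5% in MT-CYB, whereas by 1-nt position it runs from 29.3% in MT-CO3 to 80.2% in MT-ATP8. Antisense coverage runs from 11.0% in MT-ATP6 to 77.0% in MT-CYB, and to 71.2% in MT-CYB by 1-nt position.

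Antisense regions lay opposite sense regions nearly throughout. All 35 overlapped a plus-strand region by at least 1 nt. So did all 58 other minus-strand mitochondrial regions (100%, interval 93.8 to 100), so such overlap was not particular to these genes. Of the antisense-covered nucleotides in the 6 genes, 97.0% were also covered by a sense region, with shares from 94.3% in MT-CO3 to 100% in MT-ATP8. These shares stand beside a sense coverage of 64.2% of all nucleotides in the genes, and of 94.5% in MT-CYB. Within the pairs formed by each antisense region and the sense region it overlapped most, 21 of 35 antisense regions were covered completely and the 1-nt positions on the strands were a median of 32 nt apart. The sense score was the higher in 33 pairs, with a median ratio of 16.2. A wide sense region could stand in several pairs with its whole score, as both regions at the ceiling did. The pairs are therefore not independent, and ratios with a ceiling region are lower bounds. The pair in MT-CO3 at 9414 to 9443 (sense) and 9422 to 9456 (antisense) had a score of 2 on both strands. In MT-CO2 the order was turned: the sense region at 7999 to 8033 had a score of 7, against 26 for the antisense region at 8000 to 8043, with 1-nt positions 2 nt apart.

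Overlap with the other strand was found for 28 of the 35 sense regions (80.0%, interval 64.1 to 90.0). In the whole list that share was 0.379%. Among the other plus-strand mitochondrial regions it was 35 of 60 (58.3%, 45.7 to 69.9), an interval that overlaps the first, and the difference was not tested. The 7 sense regions with no antisense partner were not the weakest: their scores ran from 36 to 306 with a median of 52, against a median of 38.5 for the 28 with a partner. The region of score 306 in MT-CO1 was 1 of these 7, and the antisense strand was bare there for 610 nt, from 6308 to 6917.

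The 1-nt positions of the sense regions were unevenly spread over the reading frame. This count was made after the values were seen. Of 32 sense regions whose position lay in a gene, 12 had it at the first, 17 at the second and 3 at the last base of a codon (9.38% for the last, interval 3.24 to 24.2). No such position in MT-CO1, MT-CO2 or MT-CYB fell on a last base, out of 9, 7 and 5 (upper limits 29.9%, 35.4% and 43.5%). MT-ATP8, MT-ATP6 and MT-CO3 had 1 each, out of 2, 4 and 5. Over the 33 antisense regions, counted in the same frame of the sense strand, the numbers were 11, 6 and 16. The frame was taken from the gene starts, so an error of 1 nt in these would exchange the classes. The mitochondrial sequence of hg19 was not used here, and neither the base at each position nor what the authors' 1-nt position marks is known. No share expected from the base composition of the codons can therefore be given, and the uneven spread was not tested.

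Nuclear copies limit how well reads can be assigned to these genes. RefSeq lists 219 pseudogenes named after the 6 genes, from 4 for MT-ATP8 to 58 for MT-CO1. A nuclear copy known to be nearly identical lies near the start of chromosome 1 and holds MTCO1P12, MTCO2P12, MTATP8P1, MTATP6P1 and a 547-nt part of MT-CO3, MTCO3P12. MT-CYB is not in this copy. At this copy on hg19 the list had 14 regions, from 565261 to 569943 of chromosome 1, of which 13 were on the plus strand, with a summed score of 91 for both strands. They were counted over the copy as a whole and not assigned to its genes. Some may therefore lie outside the copies of the 6 genes. The highest had scores of 27 (567170 to 567207) and 22 (566753 to 566791), and the median was 2.5. The authors' handling of reads that match more than 1 place is not known here, and the part of these copies in the scores of the 6 genes was not tested.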

How the data were processed

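Per the labels, 4 HEK293 PAR-CLIP libraries were made. The authors deposited 1 list of regions with a score each, and, per the file headers, it is on hg19, names the library set AGO_good and a filter whose name holds 0.05. BWA 0.5.8c is named in the submitters' processing notes. For the region caller, the unit of the score and which libraries were pooled, no source used here gives an answer. The other numbers in the list, as deposited, are genomic positions, printed here counting from 1.

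The 6 intervals were read as inclusive, and their lengths equal those of the same genes in RefSeq (GRCh38.p14), from which gene order, lengths and names were taken and no coordinate. All 6 genes are described. Single regions are named if they were the highest of a gene on a strand, had a score of at least 100 or crossed a gene's edge. Others were named after their values were seen. Members and measures were chosen with earlier results of these data known. The planned count of regions in nuclear-encoded partner subunits was not run, since it needs an hg19 annotation. The functions for overlap, coverage and opposite strands were tested on 2000 simulated regions, where 5 of 5 measures came back. Computation was done with scipy 1.17.1, pandas 2.3.3 and numpy 2.4.6 under Python 3.11.15, and figures with matplotlib 3.10.9.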

Additional observations from a re-analysis of the deposited data

How the results depend on the processing

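For 6 results, 45 other settings were computed, 33 of them listed at the start and 12 added after the data were seen. In 34 of the 45 the value stayed within the 95% interval of the reported value (binomial, with nucleotides, regions or summed score as the number of trials) or, for a count, within 1.5 times. Neighbouring nucleotides and units of score are not independent trials. For coverage and the share of summed score the interval is thus only a yardstick and measures no error. The 11 others were as follows. Sense coverage of the genes (64.2%) was 59.2% with regions assigned by midpoint, 49.0% by 1-nt position, 49.0% with regions wholly inside a gene and 49.9% without regions at the ceiling. Each of these settings removes at least 1 wide region that crosses a gene's end. The sense share of the summed score (84.7%) was 90.8%, 87.3%, 87.7% and 75.0% under the same settings, and 77.7% with scores above 100 set to 100. The share of sense regions with a high score (25.7%) was 48.6% with a minimum of 50 in place of 100. The number of antisense regions (35) was 22 at scores of 3 or more, since 13 have a score of 1 or 2. No paired analysis was possible because the list gives no value for a single library.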
